A study of Mus musculus with 15 samples.

Results

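The genes described here carry out and control the synthesis of cholesterol and fatty acids. They are 32 genes, taken from a list of symbols and matched to the count tables by gene symbol, of 55401 genes counted in each mouse. They comprise 8 genes of the mevalonate steps, 12 genes of the route from squalene to cholesterol, 6 regulators and carriers of sterol synthesis and 6 genes of fatty acid synthesis. All 32 were found and all 32 passed the filter on low counts, as did 19536 genes in all. The RNA came from the hippocampus of 15 female mice, and p-values measure the spread between these mice. The paper's methods give their age as 18 to 20 months, and its discussion names an older age where it treats spine density. Mice of the study were also tested by fear conditioning with foot shocks and in the Morris water maze. Tg2576 mice (written Tg2576 +/+ in the labels) carry human amyloid precursor protein with the Swedish mutation of familial Alzheimer's disease, driven by the prion promoter, and their negative littermates (-/-) are called WT. Mice of either genotype received docosahexaenoic acid (DHA, an omega-3 fatty acid, at 450 mg/kg in sesame oil) or the sesame oil vehicle by daily intragastric dosing for 5 weeks. Vehicle was given to 4 WT and 4 Tg2576 mice and DHA to 4 WT and 3 Tg2576 mice, with 1 library for each mouse. As a check of the labels, mouse App, to which reads of the human transgene can map in part, was at 1609 to 1787 CPM in WT vehicle, 1572 to 1724 in WT DHA, 2077 to 2615 in Tg2576 vehicle and 2286 to 2787 in Tg2576 DHA libraries, without overlap between the genotypes.

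The adult brain makes nearly all of its own cholesterol, since lipoproteins of the blood do not cross the blood-brain barrier, and astrocytes, neurons and myelinating oligodendrocytes all take part in its synthesis. Acetyl-CoA is built up through mevalonate to squalene, which is closed to lanosterol and trimmed to cholesterol. The genes are switched on together by the SREBP transcription factors: when membrane sterols run low, the escort protein SCAP carries SREBP from the endoplasmic reticulum to the Golgi, where proteases release its active part, and when sterols are plentiful the INSIG proteins hold the complex back. The product of Srebf2 acts mainly on sterol genes and that of Srebf1 mainly on fatty acid genes, and polyunsaturated fatty acids such as DHA are known to lower the activity of the latter.

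Levels are given as CPM, which are read counts scaled to the size of each library with TMM factors, and between genes as CPM per kilobase of exon (CPM/kb), averaged over the 15 mice. Scd2, the main stearoyl-CoA desaturase of the brain, was the highest at 275 CPM/kb. Srebf2 followed at 43.7, Fasn (fatty acid synthase) at 38.3, Scd1 at 33.3, Acly (ATP citrate lyase, which supplies acetyl-CoA) at 31.8 and Hmgcs1 (cytosolic HMG-CoA synthase) at 30.7 CPM/kb. The lowest were Lbr (lamin B receptor, also a sterol reductase) at 2.38, Idi1 (isopentenyl diphosphate isomerase) at 2.02 and Fdps (farnesyl diphosphate synthase) at 1.47 CPM/kb. Within groups the CPM varied between mice by a coefficient of variation of 5.89% for Scap to 26.0% for Idi1. The raw counts of the genes ran from 85 for Idi1 in its lowest mouse to 77457 for Scd2 in its highest. Reads in exons shared with another gene were left out by the counting, which used no strand. Such bases made up 26.7% of the exons of Fdps (shared with Gm43738), 18.8% of Fdft1 (with Ctsb on the opposite strand), 13.2% of Scap, 12.1% of Hmgcs1, 12.1% of Tm7sf2 and 10.7% of Lbr, so the levels of these genes per length may be too low.

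Because the genes share a regulator, their promoters were searched for the core of the sterol regulatory element (SRE), TCACNCCAC, and for the CCAAT box, CCAAT, which binds the SREBP partner NF-Y. Both strands were searched, as GTGGNGTGA and ATTGG for the reverse, in windows from 250 bases before to 50 bases after each RefSeq start (GRCm38.p6). The table held 26 of the 32 genes; Fdps, Fdft1, Sqle, Stard4, Scd1 and Scd2 were not matched. The SRE letters stood in the window of 1 of the 26 genes, Hmgcs1, and in those of 1.44% of all 27025 genes. The CCAAT box stood in the windows of 22 of 26 genes (84.6%), against 41.1% of all genes, and 13 of the 26 held at least 2 copies, against 13.3% of all genes. Shown are the 250 bases before the start for the SRE-bearing gene, for the gene with most CCAAT boxes and for 2 genes whose levels differed by genotype below, 5′ to 3′ on the gene's strand, with SRE and CCAAT letters of either strand in capitals.
Hmgcs1, chr13:119690101-119690350, plus strand: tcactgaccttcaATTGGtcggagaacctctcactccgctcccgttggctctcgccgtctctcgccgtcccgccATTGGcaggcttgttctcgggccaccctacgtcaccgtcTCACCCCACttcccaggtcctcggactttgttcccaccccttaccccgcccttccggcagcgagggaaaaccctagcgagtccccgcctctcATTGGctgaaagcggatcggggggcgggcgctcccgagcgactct
Mvk, chr5:114444019-114444268, plus strand: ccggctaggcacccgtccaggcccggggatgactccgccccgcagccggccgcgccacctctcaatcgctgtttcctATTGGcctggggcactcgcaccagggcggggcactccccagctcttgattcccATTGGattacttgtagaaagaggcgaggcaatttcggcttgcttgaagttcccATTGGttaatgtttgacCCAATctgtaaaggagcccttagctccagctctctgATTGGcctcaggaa
Hsd17b7, chr1:169969206-169969455, minus strand: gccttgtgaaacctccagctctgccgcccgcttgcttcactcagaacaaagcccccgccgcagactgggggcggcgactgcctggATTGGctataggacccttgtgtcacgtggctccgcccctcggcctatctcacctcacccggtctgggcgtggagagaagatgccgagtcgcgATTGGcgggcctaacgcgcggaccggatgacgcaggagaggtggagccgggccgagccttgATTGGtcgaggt
Insig1, chr5:28071162-28071411, plus strand: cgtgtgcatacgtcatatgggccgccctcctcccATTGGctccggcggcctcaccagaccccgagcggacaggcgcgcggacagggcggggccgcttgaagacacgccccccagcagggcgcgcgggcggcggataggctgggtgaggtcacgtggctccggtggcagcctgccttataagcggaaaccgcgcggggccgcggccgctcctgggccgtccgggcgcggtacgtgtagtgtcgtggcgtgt
In Hmgcs1 the SRE began 137 bases before the start, between CCAAT boxes that began 176 and 45 bases before it. Mvk held 5 boxes, Hsd17b7 3 and Insig1 1. No copy of one motif overlapped the other. A match of letters is a description and not a measured binding site.

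The main comparison asked how the hippocampus of the transgenic mice differed from that of WT mice. Averaged over both treatments, 11 of the 32 genes were higher in Tg2576 mice at an unadjusted p under 0.01 and none was lower. Of all genes tested, 3.85% passed that threshold, 1.94% as higher and 1.91% as lower. At p under 0.05 the count was 13, where 11.6% of all genes passed, and 8 of the 32 estimates were below 0, as were 51.1% of all estimates. The 11 were 4 of 8 mevalonate genes (Acat2, Hmgcs1, Mvk and Fdps), 5 of 12 genes from squalene to cholesterol (Fdft1, Sqle, Msmo1, Nsdhl and Hsd17b7) and 2 of 6 regulators and carriers (Insig1 and Stard4). None of the 6 fatty acid genes passed. The median log2 fold change was 0.25 for the mevalonate genes, 0.26 from squalene to cholesterol, 0.063 for the regulators and carriers and -0.076 for fatty acid synthesis, and it was 0.14 for the 32 genes and -0.0043 for all genes tested. After Benjamini-Hochberg adjustment over all genes, Insig1 alone passed an adjusted p of 0.05, as 0.205% of all genes did. In bulk tissue, more RNA of a gene per cell cannot be told apart from more cells of a type that holds it.

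**Figure D1:**
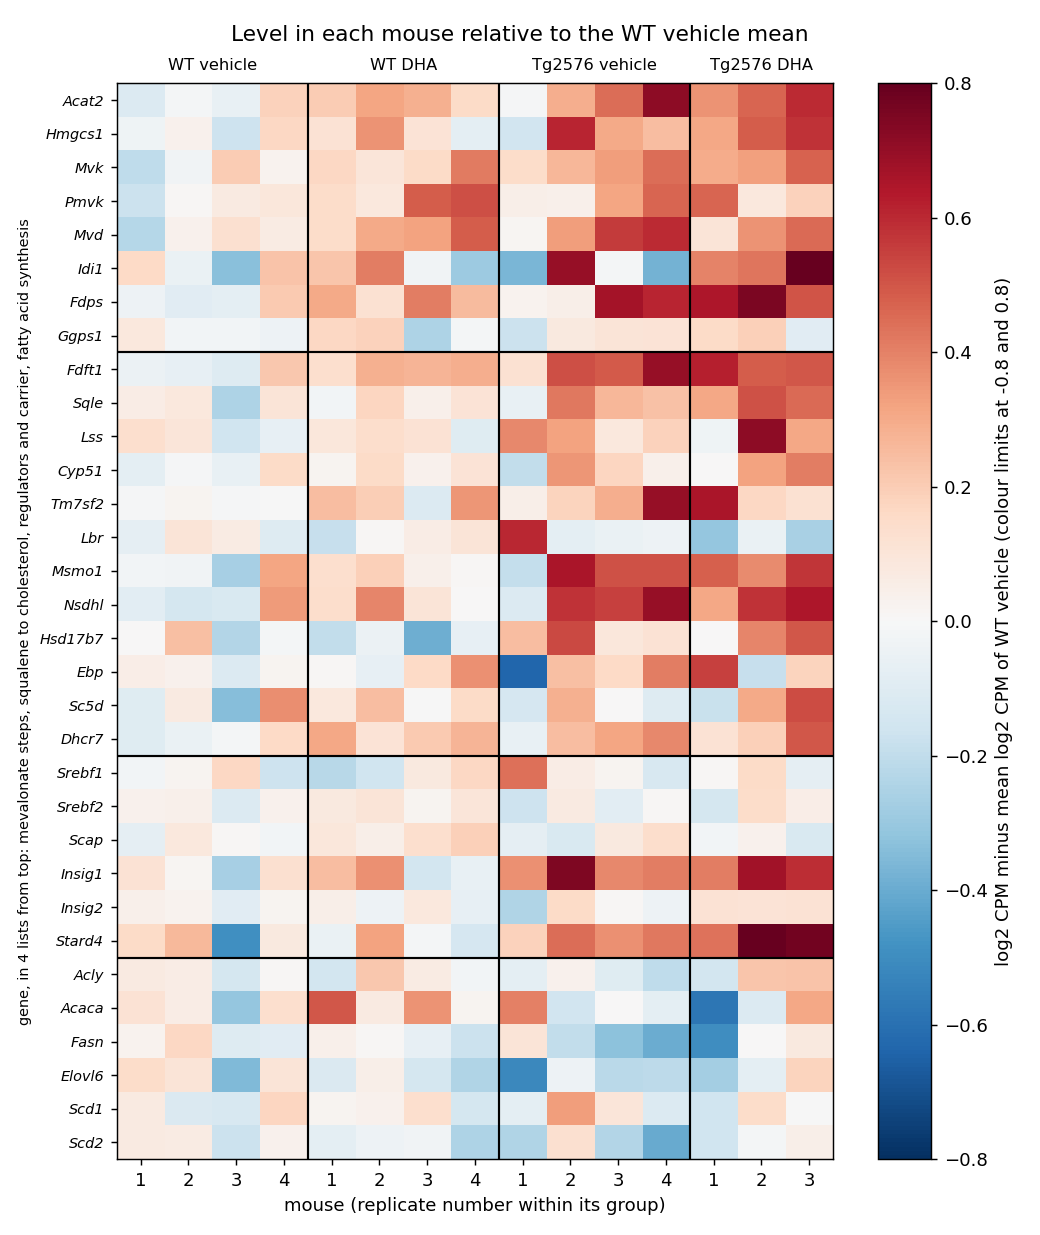
Heat map of the 32 genes (rows, in 4 lists parted by lines) in 15 mice (columns, by group and replicate number), as log2 CPM minus the WT vehicle mean; red is higher and blue lower. Most rows of the first 2 lists are red in the Tg2576 columns except replicate 1 of Tg2576 vehicle, whereas the 6 fatty acid rows at the bottom are mixed. The first list also averaged higher in the WT DHA mice (mean log2 CPM 4.71) than in the WT vehicle mice (4.52).

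Insig1 (ENSMUSG00000045294.11, chr5:28071363-28078662, plus strand) encodes an endoplasmic reticulum protein that holds back SREBP, and is itself a target of SREBP. Its level was 56.1, 52.3, 42.98 and 56.5 CPM in the WT vehicle mice and 61.2, 66.5, 46.8 and 49.7 CPM in the WT DHA mice. It was 66.6, 86.7, 67.6 and 68.7 CPM in the Tg2576 vehicle mice and 68.7, 82.5 and 77.8 CPM in the Tg2576 DHA mice. All 7 Tg2576 mice lay above all 8 WT mice, with 66.5 CPM in the highest WT mouse and 66.6 in the lowest Tg2576 mouse; this separation with Tg2576 higher was seen in 0.189% of all genes tested. The mean genotype difference was 1.38-fold (log2 fold change 0.46, SE 0.092, edgeR p of 9.51e-05, adjusted p = 0.0492). Under vehicle the difference was 0.48 (SE 0.12, edgeR p of 0.0013, exact permutation p = 0.0286) and under DHA 0.44 (SE 0.13, edgeR p of 0.00399, exact permutation p = 0.0571) on the log2 scale, where 0.0286 is the smallest exact permutation p that 4 mice against 4 allow.

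Fdft1 (ENSMUSG00000021273.11, chr14:63145150-63179578, minus strand), squalene synthase and the first enzyme committed to sterols, was at 79.7, 78.7, 76.7 and 95.6 CPM in the WT vehicle mice and 90.4, 100.1, 99.2 and 101 CPM in the WT DHA mice. In the transgenic mice it was at 89.7, 117, 116 and 133 CPM in the Tg2576 vehicle mice and 126, 115 and 116 CPM in the Tg2576 DHA mice. Of the 7 Tg2576 mice 6 lay above the highest WT mouse, and replicate 1 of Tg2576 vehicle lay among the WT mice. The mean genotype difference was 1.30-fold (log2 fold change 0.38, SE 0.077, edgeR p of 0.000131, adjusted p = 0.0517). Sqle (ENSMUSG00000022351.14, chr15:59315077-59331192, plus strand), squalene epoxidase, is a rate-limiting step of the pathway. Its values were 58.3, 59.2, 47.1 and 60.1 CPM in the WT vehicle mice and 54.98, 62.96, 57.5 and 60.2 CPM in the WT DHA mice, and 53.6, 74.8, 67.3 and 65.9 CPM in the Tg2576 vehicle mice and 69.4, 79.6 and 76.5 CPM in the Tg2576 DHA mice. Again 6 of the 7 Tg2576 mice exceeded every WT mouse, and the mean difference was 1.22-fold (log2 fold change 0.29, SE 0.076, edgeR p of 0.00144, adjusted p = 0.135).

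The enzymes that strip methyl groups from the sterol ring follow in the pathway. Msmo1 (ENSMUSG00000031604.10, chr8:64718139-64733792, minus strand), a C4-methylsterol oxidase, was at 65.9, 65.5, 55.5 and 82.9 CPM in the WT vehicle mice and 73.2, 76.2, 68.7 and 67.2 CPM in the WT DHA mice. It was at 58.6, 105, 94.9 and 94.96 CPM in the Tg2576 vehicle mice and 92.96, 86.8 and 99.05 CPM in the Tg2576 DHA mice. Its Tg2576 values exceeded every WT value in 6 of 7 mice (log2 fold change 0.39, SE 0.11, edgeR p of 0.00211, adjusted p = 0.155). Nsdhl (ENSMUSG00000031349.4, chrX:72918557-72958514, plus strand), the dehydrogenase of the same step, had 19.96, 19.2, 19.4 and 26.8 CPM in the WT vehicle mice and 23.3, 27.7, 22.7 and 21.2 CPM in the WT DHA mice, and 19.6, 31.5, 30.9 and 34.3 CPM in the Tg2576 vehicle mice and 26.2, 31.6 and 33.03 CPM in the Tg2576 DHA mice. It was higher in Tg2576 mice by 1.32-fold (log2 fold change 0.40, SE 0.11, edgeR p of 0.0028, adjusted p = 0.172), with replicate 1 of Tg2576 vehicle and replicate 1 of Tg2576 DHA within the WT range. Hsd17b7 (ENSMUSG00000026675.12, chr1:169949535-169969241, minus strand), the ketoreductase that completes the step, had 18.7, 22.1, 15.9 and 18.5 CPM in the WT vehicle mice and 16.3, 18.1, 14.3 and 17.8 CPM in the WT DHA mice. In Tg2576 mice it had 22.2, 26.95, 19.9 and 20.2 CPM in the Tg2576 vehicle mice and 18.7, 24.5 and 26.4 CPM in the Tg2576 DHA mice. All 7 Tg2576 mice were above the mean of the WT mice and 4 above the highest of them (log2 fold change 0.36, SE 0.10, edgeR p of 0.00197, adjusted p = 0.155).

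**Figure D2:**
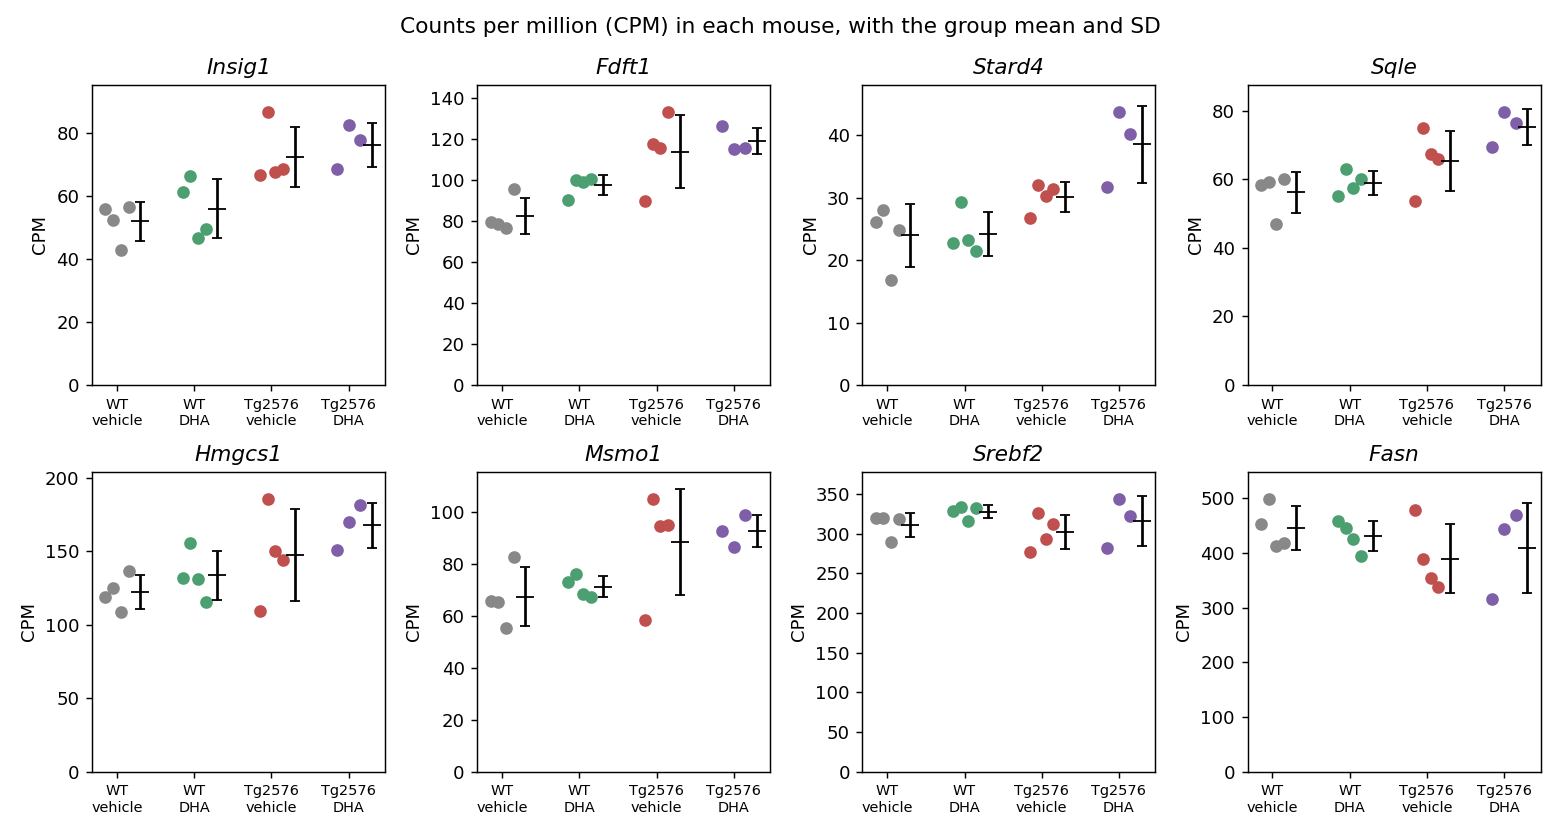
CPM in each mouse (points) with the group mean and SD (black) for 8 genes, 4 or 3 mice a group, axes from 0. Insig1 is above 66.5 CPM in all 7 Tg2576 mice and below 66.6 in all 8 WT mice, whereas Srebf2 and Fasn overlap between the genotypes.

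Upstream of squalene, Acat2 (ENSMUSG00000023832.14, chr17:12942890-12960747, minus strand), the cytosolic thiolase that joins acetyl-CoA units, was at 26.7, 28.5, 27.6 and 32.8 CPM in the WT vehicle mice and 33.1, 35.8, 35.1 and 31.998 CPM in the WT DHA mice. It was at 28.7, 35.2, 39.2 and 47.3 CPM in the Tg2576 vehicle mice and 36.9, 39.7 and 43.5 CPM in the Tg2576 DHA mice. The Tg2576 values exceeded the highest WT mouse in 5 of 7 mice (log2 fold change 0.31, SE 0.09, edgeR p of 0.00305, adjusted p = 0.174). Acat2 has a near-identical neighbouring copy, Acat3, so its level is uncertain. Hmgcs1 (ENSMUSG00000093930.2, chr13:119690379-119708260, plus strand), which makes HMG-CoA and carries the SRE shown above, had 119, 125, 109 and 137 CPM in the WT vehicle mice and 132, 156, 131 and 115 CPM in the WT DHA mice. In Tg2576 mice it had 109, 186, 150.2 and 145 CPM in the Tg2576 vehicle mice and 151, 170.4 and 182 CPM in the Tg2576 DHA mice. The genotypes overlapped, with 3 of 7 Tg2576 mice above every WT mouse, and the mean difference was 1.23-fold (log2 fold change 0.30, SE 0.097, edgeR p of 0.00642, adjusted p = 0.228).

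Mvk (ENSMUSG00000041939.14, chr5:114444269-114460591, plus strand), mevalonate kinase, was at 19.3, 21.8, 25.5 and 22.6 CPM in the WT vehicle mice and 24.9, 23.7, 24.7 and 29.6 CPM in the WT DHA mice. It was at 24.6, 26.7, 28.02 and 30.2 CPM in the Tg2576 vehicle mice and 27.2, 27.9 and 30.8 CPM in the Tg2576 DHA mice. All 7 Tg2576 mice were above the WT mean, yet 2 exceeded the highest WT mouse, and the difference was 1.17-fold (log2 fold change 0.23, SE 0.077, edgeR p of 0.00895, adjusted p = 0.253). Fdps (ENSMUSG00000059743.12, chr3:89093588-89101959, minus strand), which makes the farnesyl unit that sterols and protein prenylation share, was counted at 4.82, 4.64, 4.696 and 5.72 CPM in the WT vehicle mice and 6.12, 5.39, 6.57 and 5.901 CPM in the WT DHA mice. It was at 5.05, 5.11, 7.86 and 7.56 CPM in the Tg2576 vehicle mice and 7.74, 8.33 and 7.01 CPM in the Tg2576 DHA mice. Replicates 1 and 2 of Tg2576 vehicle lay within the WT range and the other 5 above it (log2 fold change 0.36, SE 0.12, edgeR p of 0.00883, adjusted p = 0.252). Reads in the 1124 exon bases that Fdps shares with Gm43738 on the same strand were left out, so these CPM may be too low.

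Stard4 (ENSMUSG00000024378.9), a carrier that moves cholesterol between membranes, had the largest mean genotype difference of the 32 genes at 1.42-fold. Its level was 26.1, 28.1, 16.8 and 24.8 CPM in the WT vehicle mice and 22.7, 29.4, 23.3 and 21.4 CPM in the WT DHA mice. It was 26.7, 32.03, 30.3 and 31.5 CPM in the Tg2576 vehicle mice and 31.7, 43.7 and 40.2 CPM in the Tg2576 DHA mice. Of the 7 Tg2576 mice 6 lay above every WT mouse, the highest being replicates 2 and 3 of Tg2576 DHA (log2 fold change 0.50, SE 0.11, edgeR p of 0.000218, adjusted p = 0.0739). The difference was 0.33 (SE 0.15, edgeR p of 0.037, exact permutation p = 0.0571) under vehicle and 0.67 (SE 0.16, edgeR p of 0.00051, exact permutation p = 0.0571) under DHA on the log2 scale, and the interaction did not pass (log2 fold change 0.34, SE 0.22, edgeR p of 0.136, adjusted p = 0.845).

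The SREBP factors themselves did not pass in any comparison. Srebf2 was at 319, 319, 289 and 318 CPM in the WT vehicle mice and 328, 334, 316 and 332 CPM in the WT DHA mice. It was at 277, 326, 293 and 313 CPM in the Tg2576 vehicle mice and 282, 344 and 323 CPM in the Tg2576 DHA mice. The groups overlapped, and the genotype estimate was -0.047 (SE 0.057, edgeR p of 0.422, adjusted p = 0.83) on the log2 scale. Srebf1 was at 96.9, 99.9, 111 and 87.5 CPM in the WT vehicle mice and 84.5, 87.9, 104 and 110.3 CPM in the WT DHA mice, and 134, 103, 99.96 and 89.9 CPM in the Tg2576 vehicle mice and 98.8, 109 and 93.5 CPM in the Tg2576 DHA mice. Replicate 1 of Tg2576 vehicle was its highest mouse and the other Tg2576 mice lay within the WT range (0.084, SE 0.088, edgeR p of 0.353, adjusted p = 0.792, log2). Insig2, the second INSIG, was at 44.1, 43.7, 40.2 and 43.5 CPM in the WT vehicle mice and 44.3, 41.7, 45.5 and 40.9 CPM in the WT DHA mice, and 36.2, 47.7, 43.1 and 41.7 CPM in the Tg2576 vehicle mice and 46.5, 46.2 and 46.4 CPM in the Tg2576 DHA mice. The 3 Tg2576 DHA mice lay above all 8 WT mice, and of the Tg2576 vehicle mice 1 lay below the WT range, 1 above it and the other two within it (0.042, SE 0.062, edgeR p of 0.509, adjusted p = 0.868 for the mean genotype effect, log2). Under DHA the difference was 0.11 (SE 0.091, edgeR p of 0.259, exact permutation p = 0.0571) on the log2 scale. The escort gene Scap was at 113 ± 5.09 CPM (mean ± SD) in WT vehicle mice, 123 ± 5.07 in WT DHA mice, then 114 ± 9.64 in Tg2576 vehicle and 110.3 ± 6.04 in Tg2576 DHA mice (-0.071, SE 0.056, edgeR p of 0.222, adjusted p = 0.693, log2).

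The other sterol enzymes gave genotype estimates that did not reach p under 0.01. Lss, which closes squalene to lanosterol, came nearest (0.27, SE 0.094, edgeR p of 0.0104, adjusted p = 0.261, log2), followed by Tm7sf2, a sterol reductase (0.24, SE 0.11, edgeR p of 0.0367, adjusted p = 0.391), and Mvd, which makes isopentenyl diphosphate (0.19, SE 0.094, edgeR p of 0.055, adjusted p = 0.447). The estimates of Cyp51, Dhcr7, Ebp, Sc5d, Pmvk, Idi1 and Ggps1 were between 0.046 (Ggps1) and 0.28 (Idi1), each with p above 0.05. Lbr, the only sterol enzyme with an estimate below 0 (-0.035, SE 0.11, edgeR p of 0.756, adjusted p = 0.948), was at 10.8, 12.2, 11.9 and 10.6 CPM in the WT vehicle mice and 9.95, 11.4, 11.8 and 12.2 CPM in the WT DHA mice. It was at 17.2, 10.7, 10.9 and 11.02 CPM in the Tg2576 vehicle mice and 9.14, 10.9 and 9.45 CPM in the Tg2576 DHA mice, where replicate 1 of Tg2576 vehicle stood above all other mice. Idi1 was at 6.96, 5.996, 4.93 and 7.28 CPM in the WT vehicle mice and 7.26, 8.25, 6.104 and 5.09 CPM in the WT DHA mice, and 4.82, 10.1, 6.15 and 4.797 CPM in the Tg2576 vehicle mice and 8.21, 8.36 and 12.1 CPM in the Tg2576 DHA mice. Its values spread widely within the Tg2576 vehicle group.

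None of the 6 fatty acid genes passed in any of the 8 comparisons, and 5 of the 6 genotype estimates were below 0. Fasn was at 446 ± 39.8 CPM (mean ± SD) in WT vehicle mice, 431 ± 27.8 in WT DHA mice, then 389.5 ± 62.8 in Tg2576 vehicle and 409.6 ± 82.5 in Tg2576 DHA mice (-0.13, SE 0.091, edgeR p of 0.159, adjusted p = 0.626, log2). Acaca, acetyl-CoA carboxylase, which makes the malonyl-CoA that Fasn uses, was at 63.8 ± 8.52 CPM (mean ± SD) in WT vehicle mice, 75.4 ± 12.1 in WT DHA mice, then 66.1 ± 12.2 in Tg2576 vehicle and 59.9 ± 18.1 in Tg2576 DHA mice (-0.14, SE 0.13, edgeR p of 0.28, adjusted p = 0.739). Elovl6, which lengthens palmitate, was at 73.1, 70.8, 51.5 and 70.6 CPM in the WT vehicle mice and 60.7, 67.9, 59.8 and 55.6 CPM in the WT DHA mice. It was at 46.1, 64.1, 56.6 and 56.9 CPM in the Tg2576 vehicle mice and 54.5, 62.4 and 74.4 CPM in the Tg2576 DHA mice. Of the WT vehicle mice 3 lay above every Tg2576 vehicle mouse, while the Tg2576 mice together reached both below and above the WT range (-0.093, SE 0.093, edgeR p of 0.329, adjusted p = 0.776). Scd2 was at 1588 ± 122 CPM (mean ± SD) in WT vehicle mice, 1481 ± 101 in WT DHA mice, then 1404 ± 227 in Tg2576 vehicle and 1542 ± 113 in Tg2576 DHA mice (-0.06, SE 0.076, edgeR p of 0.442, adjusted p = 0.839), and Scd1 (0.026, SE 0.079, edgeR p of 0.742, adjusted p = 0.946) and Acly (-0.0056, SE 0.072, edgeR p of 0.94, adjusted p = 0.989) had the smallest estimates.

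**Figure D3:**
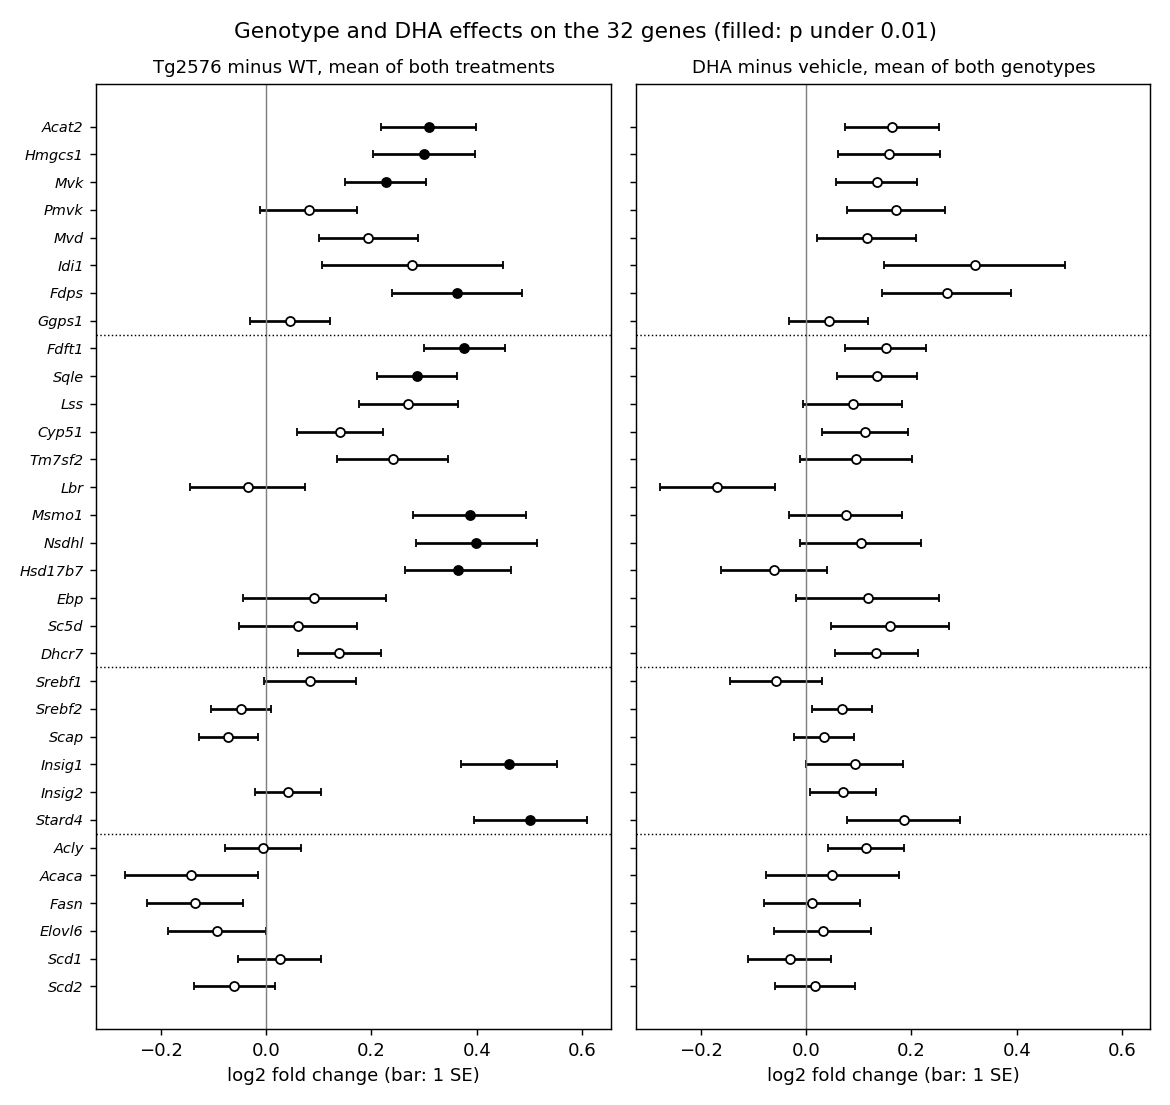
Log2 fold change with 1 SE (bars) for the 32 genes, left for Tg2576 minus WT averaged over both treatments and right for DHA minus vehicle averaged over both genotypes; filled points have p under 0.01 (edgeR) and dotted lines part the 4 lists. On the left 11 points are filled, all right of 0; on the right none is, although 28 of 32 lie right of 0.

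Under vehicle alone, 4 of the 32 genes were higher in Tg2576 mice at p under 0.01 and none lower (Fdft1, Insig1, Acat2 and Mvd), where 3.09% of all genes passed, 1.16% as higher and 1.93% as lower. At p under 0.05 it was 12, where 10.7% of all genes passed, and 2 genes had no overlap between the groups, as 5.16% of all genes had. The median estimate was 0.18 for the 32 genes and 0.00030 for all genes, and 26 of the 32 estimates were above 0, where 50% of all were below. Mvd was at 17.9, 21.5, 22.9 and 21.9 CPM in the WT vehicle mice and 23.2, 25.8, 26.2 and 29.4 CPM in the WT DHA mice. It was at 21.2, 26.5, 30.9 and 31.7 CPM in the Tg2576 vehicle mice and 22.5, 26.95 and 28.7 CPM in the Tg2576 DHA mice. The vehicle groups overlapped through replicate 1 of Tg2576 vehicle (log2 fold change 0.39, SE 0.13, edgeR p of 0.00716, adjusted p = 0.304, exact permutation p = 0.114). This count rested on single mice: it was 10 without replicate 1 of Tg2576 vehicle, and 2 without replicate 3 or replicate 4 of Tg2576 vehicle or replicate 1 or replicate 2 of WT vehicle. Without TMM scaling 7 genes passed, where the median of all genes moved to 0.033.

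Under DHA, 4 genes were higher in Tg2576 mice and none lower (Stard4, Insig1, Hsd17b7 and Sqle), where 1.75% of all genes passed, 1.06% as higher and 0.686% as lower. At p under 0.05 it was 8, where 6.86% of all genes passed. Estimates below 0 numbered 8 of 32, against 50.7% of all genes. The median estimate was 0.11, against -0.0035 for all genes. The 3 Tg2576 DHA mice lay wholly outside the range of the 4 WT DHA mice for 10 of the 32 genes, as they did for 8.56% of all genes, and the smallest exact permutation p that 4 mice against 3 allow is 0.0571. The count of 4 became 1 without replicate 2 of Tg2576 DHA or replicate 3 of WT DHA, and 2 without replicate 3 of Tg2576 DHA or replicate 1 of WT DHA. A test of any difference among the 4 groups passed 4 genes (Fdft1, Insig1, Stard4 and Sqle), where 2.36% of all genes passed, and 12 at p under 0.05, where 8.3% did. That count was 7 without replicate 1 of Tg2576 DHA, 9 without replicate 1 of Tg2576 vehicle and 7 without replicate 4 of WT vehicle. The 2 genotype comparisons share no mice. The count of 11 for the mean genotype effect ranged from 8 to 12 when 1 mouse was left out.

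With group as the only term of the edgeR fit, no gene of the 32 passed for DHA in either genotype. In WT mice 1.38% of all genes passed at p under 0.01 and none of the 32 did in edgeR, DESeq2 or limma-voom; 3 had p under 0.05, where 5.92% of all genes did. Of the 32 estimates 6 were below 0, against 52.7% of all, with a median of 0.084 against -0.013 for all genes. By list the median was 0.22 for the mevalonate genes (8 of 8 above 0) and 0.091 from squalene to cholesterol (10 of 12). It was 0.045 for the regulators and carriers (5 of 6) and -0.019 for fatty acid synthesis (3 of 6). The mean log2 CPM of the mevalonate genes was 4.69 to 4.75 in WT DHA and 4.45 to 4.63 in WT vehicle mice, a difference that was not tested. The lowest p belonged to Pmvk, phosphomevalonate kinase, at 32.4, 36.7, 38.4 and 38.9 CPM in the WT vehicle mice and 40.4, 38.7, 51.1 and 52.2 CPM in the WT DHA mice. It was at 37.7, 37.5, 45.5 and 50.4 CPM in the Tg2576 vehicle mice and 50.4, 38.7 and 41.5 CPM in the Tg2576 DHA mice. Of the 4 WT DHA mice 3 exceeded every WT vehicle mouse, and replicate 2 lay just under the highest of them (log2 fold change 0.32, SE 0.13, edgeR p of 0.0219, adjusted p = 0.791, exact permutation p = 0.0571). Mvd was the single gene without overlap between WT DHA and WT vehicle mice, which held for 5.02% of all genes (log2 fold change 0.31, SE 0.13, edgeR p of 0.0261, adjusted p = 0.817, exact permutation p = 0.0286). Fdft1 gave 0.24 (SE 0.11, edgeR p of 0.0356, exact permutation p = 0.0571) on the log2 scale. The count of 0 became 1 without replicate 2 of WT DHA or without replicate 4 of WT vehicle, and 1 with a replicate block (where 1.59% of all genes passed). With covariates added after the data were seen it became 4 with the level of microglial markers (2.55% of all genes) and 4 with that of oligodendrocyte markers (3.46%). In these 3 fits the count for DHA in Tg2576 mice was 0, where 0.276% to 0.645% of all genes passed, and with the oligodendrocyte level 2 genes passed for the mean DHA effect (1.97% of all genes).

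In Tg2576 mice 0.353% of all genes passed and none of the 32 did in edgeR, DESeq2 or limma-voom; 2 had p under 0.05, Stard4 (0.35, SE 0.16, edgeR p of 0.0375, exact permutation p = 0.114, log2) and Idi1 (0.55, SE 0.25, edgeR p of 0.0405, exact permutation p = 0.171), where 3.16% of all genes did. The next was Lbr (-0.34, SE 0.16, edgeR p of 0.0527, exact permutation p = 0.171), for which replicate 1 of Tg2576 vehicle was far above the others. The median was 0.072, against -0.0039 for all genes, 6 estimates were below 0, against 50.9% of all, and no gene separated the groups, as 3.21% of all genes did. By list the median was 0.077 for the mevalonate genes and 0.067 from squalene to cholesterol. It was 0.070 for the regulators and carriers and 0.10 for fatty acid synthesis. The count became 2 without replicate 1 of Tg2576 DHA and 1 without replicate 2 of Tg2576 vehicle. Averaged over both genotypes, 4 of the 32 estimates were below 0, against 51.8% of all. None passed in edgeR, DESeq2 or limma-voom, where 0.87% of all genes did in edgeR; 1 had p under 0.05, Fdps (log2 fold change 0.27, SE 0.12, edgeR p of 0.0442, adjusted p = 1), where 3.78% of all genes did, and 1 gene passed without replicate 2 of Tg2576 vehicle.

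The interaction, which asks whether the response to DHA differed between the genotypes, passed none of the 32 in edgeR, DESeq2 or limma-voom, at p under 0.01 or, in edgeR, at p under 0.05, where 0.829% and 5.12% of all genes passed. The lowest p was that of Mvd (log2 fold change -0.40, SE 0.19, edgeR p of 0.0516, adjusted p = 0.845), with DHA estimates of 0.31 in WT and -0.083 in Tg2576 mice. Elovl6 (0.31, SE 0.18, edgeR p of 0.111, adjusted p = 0.845) and Pmvk (-0.29, SE 0.19, edgeR p of 0.133, adjusted p = 0.845) came next. Without replicate 1 of Tg2576 vehicle 1 gene passed, as did 1 with the microglial level as a covariate added after the data were seen (2.42% of all genes). Of the 32 estimates 18 were below 0, against 49.4% of all. The median interaction was -0.0099 for the 32 genes and 0.0043 for all genes.

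Other genes of the pathway were read from 4 further lists, and 3.85% of all genes passed by mean genotype effect. The first list held 13 genes that process SREBP, degrade enzymes by sterol signal or act with SREBP at promoters. Of these Rnf139, an endoplasmic reticulum ubiquitin ligase, was higher in Tg2576 mice (log2 fold change 0.38, SE 0.092, edgeR p of 0.000755, adjusted p = 0.106) and none was lower. Of the exon bases of Rnf139 26.2% are shared with other genes. Of 10 tested genes of late sterol and isoprenoid steps, Pdss1, which makes the tail of coenzyme Q, was higher (log2 fold change 0.29, SE 0.089, edgeR p of 0.00477, adjusted p = 0.204). Of 16 genes of acetyl-CoA supply, lipogenesis and elongation, Fads6 was lower (log2 fold change -0.23, SE 0.065, edgeR p of 0.00287, adjusted p = 0.173). None of 13 genes of sterol turnover, esterification and efflux passed by genotype. The medians of these lists were between -0.014 and 0.069 on the log2 scale. For DHA in WT mice, where 1.38% of all genes passed, Sp1, a partner of SREBP at promoters, was lower (log2 fold change -0.49, SE 0.13, edgeR p of 0.00183, adjusted p = 0.54, exact permutation p = 0.0286) and Cyp46a1, the neuronal cholesterol 24-hydroxylase, higher (log2 fold change 0.28, SE 0.089, edgeR p of 0.00666, adjusted p = 0.647, exact permutation p = 0.0286), while no gene of these lists passed for DHA in Tg2576 mice, where 0.353% of all genes did. Averaged over genotypes, where 0.87% of all genes passed, Cyp27a1, a sterol 27-hydroxylase, was lower (log2 fold change -0.45, SE 0.15, edgeR p of 0.00915, adjusted p = 1). Under DHA, where 1.75% of all genes passed, Rnf139 (0.51, SE 0.14, edgeR p of 0.00149, exact permutation p = 0.0571) and Nus1, of dolichol synthesis (0.30, SE 0.095, edgeR p of 0.00499, exact permutation p = 0.0571), were higher in Tg2576 mice on the log2 scale, and under vehicle, where 3.09% did, Pdss1 was higher (0.39, SE 0.12, edgeR p of 0.0053, exact permutation p = 0.0286) and Fads6 lower (-0.39, SE 0.089, edgeR p of 0.000417, exact permutation p = 0.0286).

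Between mice of the same group the genes varied together in part. Each gene's log2 CPM was centred on its group mean, and Pearson's r was taken over the 15 mice, where both genes of a pair share each mouse's library and depth; these values are descriptions without a test. Over all 496 pairs the median r was 0.23, against 0.0057 for pairs with all other genes, and 31.7% of pairs exceeded 0.5, against 11.2%. Within the fatty acid genes the median was 0.58, from squalene to cholesterol 0.33 and within the mevalonate genes 0.24, whereas between fatty acid and mevalonate genes it was -0.075. The closest neighbours were Idi1 and Scd2 (0.87), Msmo1 and Nsdhl (0.87), Acat2 and Nsdhl (0.87), and Hmgcs1 and Msmo1 (0.86). Srebf2 was closest to Sqle (0.82), Insig1 to Idi1 (0.79) and Stard4 to Elovl6 (0.85). Srebf1 and Lbr were closest to each other (0.85), and their median r with the other genes was -0.42 and -0.33. Both were highest in replicate 1 of Tg2576 vehicle, at 134 and 17.2 CPM. That mouse was also the lowest of its group for Fdft1, Sqle, Msmo1 and Nsdhl, and r without it was not computed.

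**Figure D4:**
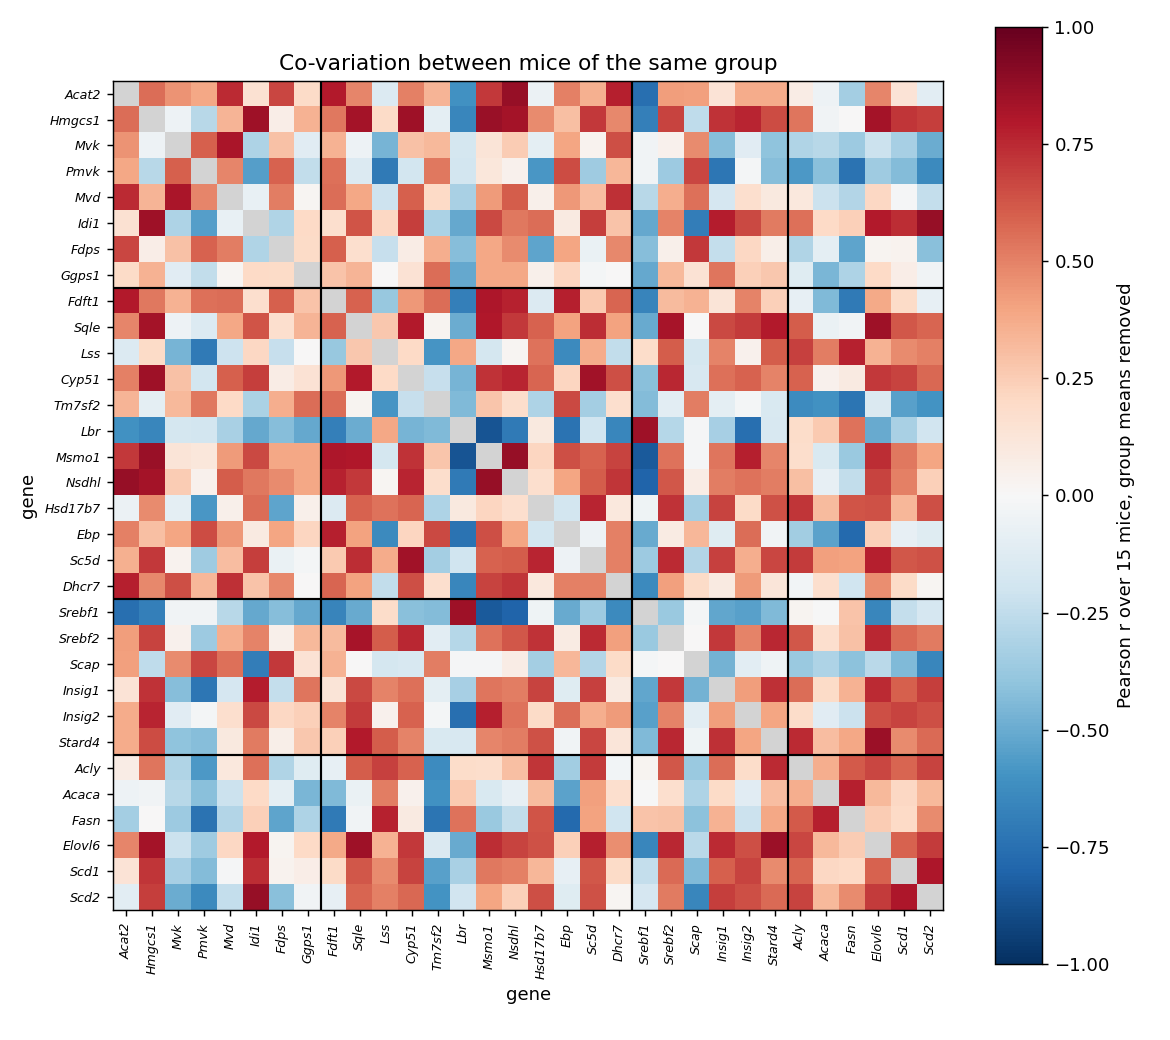
Pearson's r over 15 mice between each pair of the 32 genes after removal of group means (red positive, blue negative, grey the diagonal), with lines parting the 4 lists. Srebf1 and Lbr form blue rows across most sterol genes, while Hmgcs1, Sqle, Cyp51, Msmo1 and Nsdhl are red with each other.

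Levels of cell type markers were read beside these results. Of all genes tested 1.94% passed as higher and 1.91% as lower by mean genotype effect. Oligodendrocyte markers (10 genes, summed CPM 7598 to 8201 in WT vehicle, 5889 to 8422 in WT DHA, 5893 to 8578 in Tg2576 vehicle and 5596 to 7351 in Tg2576 DHA mice) and astrocyte markers (8 genes, 5106 to 6280, 4991 to 5409, 4440.4 to 5610.3 and 4765 to 5308) had none of their genes passing by mean genotype effect. Microglial markers passed as higher in Tg2576 mice for 4 of 7 genes, and their summed CPM was 319.8 to 379.7, 275 to 341 and 321 to 461 in the first 3 groups and 349.9 to 499.3 in Tg2576 DHA mice. Markers of the hippocampal fields passed as lower for 3 of 9 genes, with sums of 1257 to 1589.5, 1225 to 1547, 1088 to 1268 and 1143.5 to 1309 CPM. Neuronal markers passed as lower for 1 of 8 genes, with sums of 6538 to 7291, 6864 to 7589.7, 6579.8 to 6829 and 6106 to 7272 CPM, and endothelial markers passed as higher for 1 of 5. Choroid plexus markers varied most, with sums of 89.1 to 3722, 61.3 to 5815, 141 to 3159 and 3099 to 5149 CPM, and all 3 Tg2576 DHA mice were high. All markers, those of the hippocampal fields included, were above 0 in all mice except Kcne2 of the choroid plexus list, which was at 0 in replicate 2 of WT vehicle. For DHA in WT mice, where 1.38% of all genes passed, 1 of 7 microglial markers passed as lower. Of 9 hippocampal field markers 2 passed as higher and 1 as lower, and no other marker passed. All 10 oligodendrocyte markers had estimates below 0 there, with a median of -0.21 against -0.013 for all genes. For DHA in Tg2576 mice 8 of the 10 were below 0 (median -0.12), and 1 passed as lower, where 0.353% of all genes passed.

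With the choroid plexus level as a covariate 11 of the 32 genes passed by mean genotype effect, where 2.73% of all genes did; these included 10 of the 11 genes that passed without the covariate, the exception being Hmgcs1. With the oligodendrocyte level 11 passed, the same 11 genes, where 5.99% of all genes did. With the microglial level 5 passed (where 4.69% of all genes did), and with the level of the hippocampal field markers 4 (where 1.18% of all genes did). Insig1, Stard4, Fdft1 and Hsd17b7 passed with either level. The last 2 levels themselves differ by genotype, so the part of the marker level and that of the genotype cannot be told apart. These 4 covariates were added after the data were seen.

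Relations of single genes to marker levels were computed for the 32 genes and 3 lists (96 relations), over 15 mice and with two-sided permutation tests. By Pearson's r 5 passed an adjusted p of 0.05. Scd2 correlated with the astrocyte level (r = 0.81, p = 0.00031, adjusted p = 0.0298; Spearman's rho = 0.73, p = 0.00286, adjusted p = 0.0995), and r was 0.71 without the 2 mice farthest from the median level. Scd1 did likewise (r = 0.75, p = 0.00135, adjusted p = 0.0398; rho = 0.74, p = 0.0023, adjusted p = 0.0995; 0.73 without those 2 mice). Fasn correlated with the neuronal level (r = 0.79, p = 0.00062, adjusted p = 0.0298; rho = 0.59, p = 0.0237, adjusted p = 0.238; 0.57 without 2 mice). Pmvk (r = -0.73, p = 0.00166, adjusted p = 0.0398; rho = -0.58, p = 0.0262, adjusted p = 0.238; -0.61 without 2 mice) and Tm7sf2 (r = -0.74, p = 0.0022, adjusted p = 0.0422; rho = -0.58, p = 0.025, adjusted p = 0.238; -0.36 without 2 mice) correlated inversely with the astrocyte level, and that of Tm7sf2 rests on those 2 mice. By Spearman's rho none passed after adjustment, and none of the 32 passed with the oligodendrocyte level. For these 5 relations the group-centred values of r were 0.85, 0.82, 0.77, -0.74 and -0.74 in the same order.

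A further 96 relations, with the microglial, choroid plexus and hippocampal field levels, were added after the data were seen, and none passed an adjusted p of 0.05 by Pearson's r or Spearman's rho. With the microglial level 6 of the 32 genes had an unadjusted permutation p under 0.01, namely Msmo1, Ebp, Fdft1, Sqle and Nsdhl with positive r and Lbr with negative r. Msmo1 was the closest (r = 0.79, p = 0.0008, adjusted p = 0.0768; Spearman's rho = 0.74, p = 0.00255, adjusted p = 0.122; 0.74 without the 2 mice farthest from the median level; 0.75 after removal of group means). The median r with the microglial level was 0.50 for the mevalonate genes, 0.56 from squalene to cholesterol and -0.0062 for the fatty acid genes, and after removal of group means it was 0.50, 0.50 and -0.024.

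**Figure D5:**
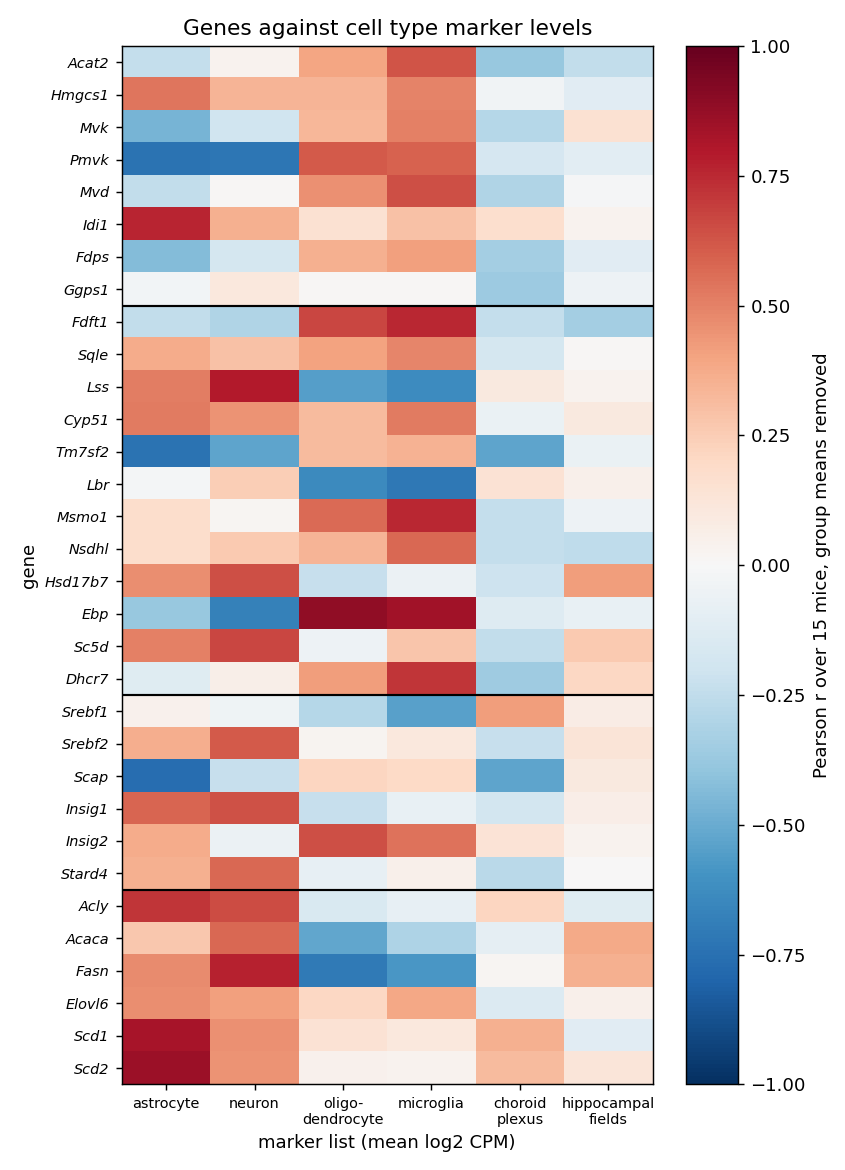
Pearson's r over 15 mice, after removal of group means, of each of the 32 genes (rows) with the mean log2 CPM of 6 marker lists (columns); red is positive and blue negative. Scd1 and Scd2 are red for astrocytes (0.82 and 0.85), and most sterol enzymes are red for microglia, whereas the 6 fatty acid genes are red for astrocytes and neurons. By mean log2 CPM, replicate 1 of Tg2576 vehicle had the lowest microglial level and the lowest oligodendrocyte level of the 15 mice. By summed CPM the lowest were replicate 1 of WT DHA for microglia (275) and replicate 2 of Tg2576 DHA for oligodendrocytes (5596).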

How the data were processed

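Hippocampal RNA of 15 female mice was sequenced. The submitters' processing notes name GRCm38, STAR 2.6.1c and featureCounts 1.6.0. The deposited values are the authors' raw counts per gene on GENCODE M25 exons, made without a strand setting and not normalized. Reads that map to several places or several genes are left out by the defaults of that tool. For the libraries the labels name a SMARTER kit and the paper a TruSeq Stranded kit. Total counts ran from 17372864 to 46596489 per mouse (median 25645977).

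From the counts, edgeR 4.0.16 (R 4.3.3) kept 19536 genes by filterByExpr (minimum count 10), scaled library sizes by TMM (factors 0.961 to 1.03) and fitted 1 coefficient per group with robust quasi-likelihood dispersions (biological coefficient of variation 20.1%). Tests were two-sided quasi-likelihood F tests with Benjamini-Hochberg adjustment over all genes, and each SE was derived from the estimate and its F statistic (estimate over root F). A gene passed at an unadjusted p under 0.01, as in the paper. Because nothing ties mice of different groups together, no block was used. Exact permutation tests compared mean log2 CPM (prior count 2) of single genes. Correlations with marker levels used 100000 permutations in Python 3.11.15 (numpy 2.4.6, pandas 2.3.3). Promoter sequences came from RefSeq. Alternatives were DESeq2 1.42.0, limma-voom (limma 3.58.1), no TMM scaling, no filter on low counts, dispersions without the robust option, only the groups compared, a replicate block and each mouse left out in turn. The fit was tested on simulated data. Genes named with a value in every mouse are those with p under 0.01 in any of the 8 comparisons, the 3 of lowest p in each, Srebf1, Srebf2, Insig1 and Insig2; of the other lists at most 3 genes are named. The genes and lists were chosen with earlier results of these data known. Protein identities of paralogs were planned and not computed. Figures were drawn with matplotlib 3.10.9.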

Additional observations from a re-analysis of the deposited data

Results flagged for a closer look

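Each of the 32 genes was checked in each group of 4 mice, which gave 96 sets of 4 values. In 12 of the 96 sets, 1 mouse lay apart from the other 3 by a gap that took up more of the range than Dixon's critical value. About 1 in 20 sets (4.8) would do so by chance if the sets were independent. They are not, since the genes were read in the same mice and vary together in part. The ratio of gap to range is given in brackets. Replicate 3 of WT vehicle was the lowest of its group for Sqle at 47.1 CPM against 58.3 to 60.1 in the others (0.858), for Srebf2 at 289 CPM against 318 to 319 in the others (0.952), for Insig2 at 40.2 CPM against 43.5 to 44.1 in the others (0.8399) and for Elovl6 at 51.5 CPM against 70.6 to 73.1 in the others (0.886). Replicate 4 of WT vehicle was the highest for Fdps at 5.72 CPM against 4.64 to 4.82 in the others (0.831), for Fdft1 at 95.6 CPM against 76.7 to 79.7 in the others (0.839) and for Nsdhl at 26.8 CPM against 19.2 to 19.96 in the others (0.899). Replicate 1 of WT vehicle was the highest for Ggps1 at 41.7 CPM against 38.2 to 38.8 in the others (0.835). Replicate 1 of Tg2576 vehicle was the lowest for Ggps1 at 34.97 CPM against 41.5 to 42.4 in the others (0.888) and the highest for Lbr at 17.2 CPM against 10.7 to 11.02 in the others (0.956). Replicate 2 of Tg2576 vehicle was the highest for Insig1 at 86.7 CPM against 66.6 to 68.7 in the others (0.897), and replicate 1 of WT DHA the lowest for Fdft1 at 90.4 CPM against 99.2 to 101 in the others (0.864).

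For Scd2 the DHA mice of the 2 genotypes lay on opposite sides of their vehicle means: every WT DHA mouse was below the WT vehicle mean, with group means that differed by -106.8 CPM, and every Tg2576 DHA mouse was above the Tg2576 vehicle mean. The difference between the genotypes was singled out by the direction of every mouse, without a test; the edgeR interaction did not pass (log2 fold change 0.24, SE 0.15, edgeR p of 0.14, adjusted p = 0.845). Sp1, a promoter partner of SREBP, is 1 of 13 genes of the list that also holds the SREBP processing genes. It passed by its interaction of genotype and DHA (log2 fold change 0.69, SE 0.19, edgeR p of 0.00256, adjusted p = 0.845), with DHA estimates of -0.49 in WT and 0.20 in Tg2576 mice. Of all genes tested 0.829% passed by the interaction, and no gene of the other further lists did.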

How the results depend on the processing

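Of the 8 counts, those of the mean genotype effect (11) and of both DHA comparisons (0) kept to within 1.5 times of their value under DESeq2, limma-voom, no TMM scaling, no filter, no robust option and the fit of only the groups compared, where these were run. No gene called in any comparison changed direction under any alternative run. The count for genotype under vehicle (4) was 7 with DESeq2, 7 without TMM scaling and 2 in the fit of only the groups compared, and that for any difference (4) was 9 with DESeq2, 7 without TMM scaling and 7 without the filter. Mice share only a number across groups: deviations of same-numbered mice correlated from -0.63 to 0.56 and 2 of 15 mice correlated best with their own number. With the replicate block 1 gene passed for DHA in WT (1.59% of all genes) and 9 for any difference (2.32%), and no other count moved by over 1.5 times. With covariates added after the data were seen (share of all genes passing in the same fit in brackets), the microglial level gave 4 for DHA in WT (2.55%), 2 for genotype under vehicle (3.43%), 2 under DHA (3.63%), 1 for the interaction (2.42%) and 5 for the mean genotype effect (4.69%). The oligodendrocyte level gave 4 for DHA in WT (3.46%), 8 for genotype under vehicle (6.46%) and 2 for the mean DHA effect (1.97%). The hippocampal field level gave 2 for genotype under vehicle (1.07%), 2 under DHA (0.973%), 4 for the mean genotype effect (1.18%) and 1 for any difference (1.12%). Leaving out 1 mouse gave 0 to 1 for DHA in WT, 0 to 2 for DHA in Tg2576, 2 to 10 for genotype under vehicle, 1 to 6 under DHA, 0 to 1 for the interaction, 0 to 1 for the mean DHA effect, 8 to 12 for the mean genotype effect and 3 to 9 for any difference. What limits the precision of these comparisons was not tested.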
